A study of Saccharomyces cerevisiae with 12 samples.

Results

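Aminoacyl-tRNA synthetases were followed as 32 genes of budding yeast (Saccharomyces cerevisiae), out of 5449 genes with a named probe set on the array. The genes were taken by symbol from a fixed list, and each was read from 1 probe set. Of the 32, 18 encode enzymes of the cytosol and 13 encode enzymes of the mitochondrion, and GRS2 is a paralogue of the glycine enzyme gene GRS1. Within the cytosolic 18, the genes ALA1, GRS1, HTS1 and VAS1 encode the cytosolic and the mitochondrial form of their enzyme from 1 locus, and they are counted here with the cytosolic enzymes. Transcript levels were measured on 12 Affymetrix arrays, in 4 groups of 3 replicates. Strain BY4741, grown exponentially in YEPD rich medium at 30 °C, was either slt2-deficient or wild type, and each genotype was sampled after 2 h with 100 µM sodium arsenate or untreated at 0 min. SLT2 encodes a kinase that relays cell wall damage to the nucleus, and arsenate is a toxic analogue of phosphate. The groups are called slt2 arsenate, slt2 untreated, wild-type arsenate and wild-type untreated. Arsenate and 2 h of further culture cannot be told apart, and the labels do not say how the slt2 strain was made or whether it is 1 clone. The design text calls the replicates independent without naming separate cultures, so the p-values reflect only how these samples scatter, and that scatter may be technical.

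An aminoacyl-tRNA synthetase joins an amino acid to the transfer RNAs that carry it to the ribosome. Yeast cells keep separate sets of these enzymes for cytosolic translation and for the small set of proteins made inside mitochondria, and for many amino acids each set has a gene of its own in the nucleus. Cytosolic synthetases belong with ribosomal proteins to the abundant growth machinery of rapidly dividing cells, and the mitochondrial enzymes serve the making of respiratory chain subunits. The enzymes fall into class I and class II by the fold of the catalytic domain. Both classes occur in both compartments.

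Values are log2 signals, and an effect is a difference of group means on that scale, given with its standard error (SE). Signals of different probe sets cannot be set against each other as amounts of RNA, and fewer producing cells and less RNA per cell cannot be told apart. Probe sets of the cytosolic enzymes had 12-array means between 12.16 and 13.81, and those of the mitochondrial enzymes between 8.54 and 9.75. Calls are from limma with Benjamini-Hochberg adjustment over all 5449 genes at a threshold of 0.05. SLT2 itself read 5.22 to 5.81 on the slt2 arrays, against 10.66 to 11.01 on the wild-type arrays. The markers deleted in BY4741 (LEU2, URA3 and MET17) read 3.74 to 5.47 throughout. Replicates of the slt2 groups correlated at 0.996 to 0.998, while wild-type arsenate replicates correlated at 0.672 to 0.949 and wild-type untreated replicates at 0.963 to 0.984. The arrays wild-type arsenate 1, wild-type arsenate 2 and wild-type untreated 2 stood apart from the rest. A list of 29 general stress genes (CTT1, HSP12 and others) had medians of 4.08, 2.36 and 1.35 above its 12-array middle on these 3 arrays, and between -0.42 and 0.28 on the other arrays. Signals of control transcripts at the 3' end exceeded those at the 5' end by 1.79 on wild-type arsenate 2 and 1.59 on wild-type untreated 2, and by 0.92 to 1.17 elsewhere. The part of stress state and RNA quality in the results below was not tested, and the medians and named effects that involve wild-type arrays are given with and without the 3 arrays.

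**Figure D1:**
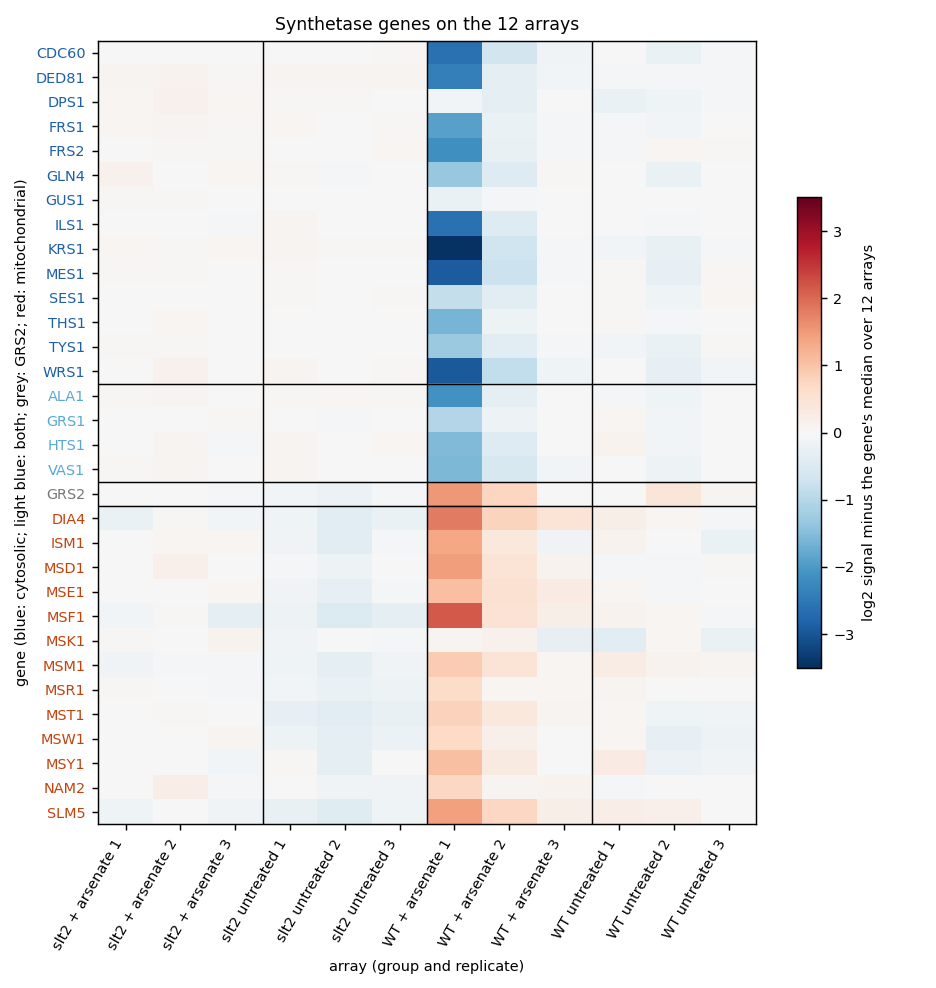
Log2 signal of each of the 32 synthetase genes (rows, grouped by compartment) on each of the 12 arrays (columns), minus the gene's median over the 12 arrays. The slt2 columns are pale, and the strongest colours lie in wild-type arsenate 1, where KRS1 read 10.15 and MSF1 read 10.84.

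In slt2 cells all 13 mitochondrial enzyme genes had a mean after arsenate above that of untreated cells, with a median effect of 0.16 (range 0.05 to 0.32). The 18 cytosolic enzyme genes had a median effect of 0.00 (range -0.04 to 0.08), with 12 above 0 and 6 below. Over all genes the median effect was 0.03, and 61.1% of genes were above 0. These values come from a fit to the 6 slt2 arrays, which do not share the spread of the wild-type arrays. In that fit 1 of the 32 genes passed the threshold, MST1, where 1.91% of all genes were called higher and 0.551% lower.

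MST1 encodes the mitochondrial threonine enzyme. Its signal was 9.38, 9.44 and 9.41 on the 3 slt2 arsenate arrays, against 9.12, 9.02 and 9.13 on the slt2 untreated arrays. Every arsenate array was above every untreated array. The means were 9.41 ± 0.03 and 9.09 ± 0.06 (SD, n = 3 each), an effect of 0.32 (SE 0.05, 95% interval 0.20 to 0.44), or 1.25-fold, with a limma adjusted p of 0.0305. The adjusted p lay between 0.014 and 0.114 over 12 alternative settings and passed in 6 of them. It was lost when any slt2 array other than untreated 2 was left out (0.0718 to 0.114), and the effect then lay between 0.31 and 0.34. It was also lost when replicate number was added to the model as a block (0.110). In the model of all 12 arrays MST1 had an adjusted p of 1, and none of the 32 genes had an unadjusted p under 0.05. In that model 2 genes of all were called, or 0.0367%, and unadjusted p-values under 0.05 were found for 1.16% with a higher and 0.147% with a lower signal.

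MSW1 encodes the mitochondrial tryptophan enzyme. It read 9.10, 9.13 and 9.22 on the slt2 arsenate arrays, against 8.94, 8.78 and 8.91 on the slt2 untreated arrays, with no overlap between the groups. The effect was 0.27 (SE 0.06), with a limma adjusted p of 0.0863, short of the threshold.

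ISM1, the mitochondrial isoleucine enzyme, read 9.54, 9.58 and 9.58 with arsenate, against 9.40, 9.13 and 9.46 in untreated slt2 cells. The arsenate arrays lay close together above a wider untreated group whose array 2 was lowest. MSE1, the mitochondrial glutamate enzyme, read 9.62, 9.63 and 9.71 with arsenate, against 9.51, 9.33 and 9.58 untreated. Here too the groups did not overlap and untreated array 2 was lowest. The effects were 0.24 for ISM1 (adjusted p 0.258) and 0.18 for MSE1 (adjusted p 0.291, both limma).

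Among the 13 mitochondrial enzymes, 8 had groups that did not overlap with arsenate higher (MSE1, MSK1, MSM1, MSR1, MST1, MSW1, ISM1 and SLM5), where 15.3% of all genes did. Unadjusted p-values under 0.05 were found for 6 of the 13, where 12.1% of all genes had one in that direction. The smallest effect of the 13 was that of the tyrosine enzyme MSY1, at 0.05 (95% interval -0.20 to 0.29), whose 3 arsenate arrays (9.26, 9.25 and 9.18) lay between untreated array 2 (8.95) and untreated arrays 1 and 3 (9.31 and 9.30). The leucine enzyme NAM2, which also takes part in splicing of mitochondrial introns, had an effect of 0.15 with overlapping groups.

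Untreated array 2 of slt2 was low for this group of genes, and not for it alone. The median deviation of the 13 genes from their 12-array medians was -0.01, 0.03 and -0.03 on slt2 arsenate arrays 1, 2 and 3, against -0.13, -0.33 and -0.13 on the slt2 untreated arrays. On untreated array 2 the median deviation was -0.26 for 66 mitochondrial ribosomal protein genes and -0.18 for 1159 other genes in the same signal range. Over all genes it was -0.10. The same array also had the lowest median over all genes of the 12 arrays, at 10.03. Without it the median effect of the 13 genes was 0.12, and over all ways of leaving out 1 slt2 array it lay between 0.12 and 0.20. When each array was centred on its median, all 13 stayed above 0 with a median of 0.12, and MST1 and MSW1 were called, where 2.9% of all genes were called higher. Under quantile normalisation 12 of 13 were above 0 with a median of 0.08.

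The 1159 other genes whose 12-array mean fell in the same signal range as the mitochondrial enzymes had a median effect of 0.05, with 798 above 0 and 181 non-overlapping with arsenate higher. Under quantile normalisation their median was -0.03. The 66 genes of mitochondrial ribosomal proteins, the other part of the mitochondrial translation machinery measured here, had a median effect of 0.14. Of these, 65 were above 0 and 41 did not overlap with arsenate higher, where 15.3% of all genes did so. None was called by limma, where 1.91% of all genes were called higher and 0.551% lower. Unadjusted p-values under 0.05 were found for 29, where 12.1% of all genes had one with a higher and 4.57% with a lower signal. The largest effects of the 66 were 0.31 for RSM27 (adjusted p 0.0560) and 0.29 for MRPS28 (adjusted p 0.0682, both limma). Both encode proteins of the small mitochondrial ribosomal subunit.

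**Figure D2:**
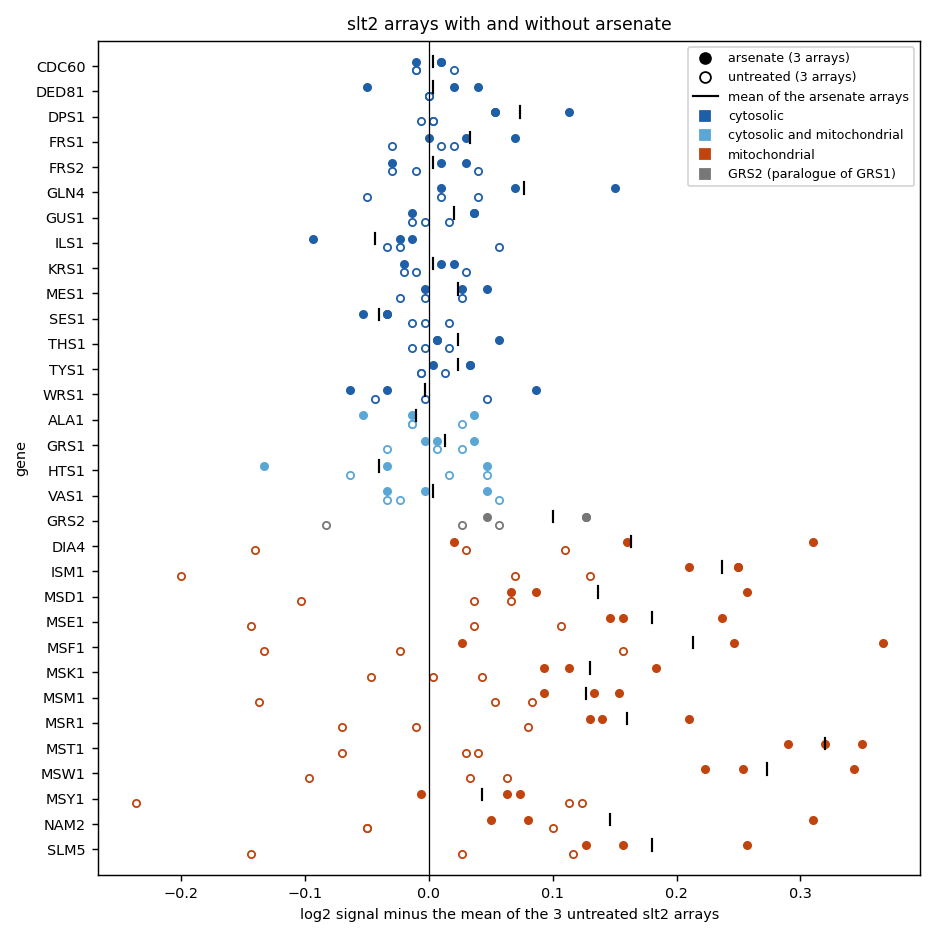
Log2 signal of each synthetase gene on the 3 slt2 arsenate arrays (filled points, with their mean as a vertical line) and the 3 slt2 untreated arrays (open points), minus the mean of the untreated arrays. Means of the 13 mitochondrial enzymes lie between 0.05 and 0.32, and means of the 18 cytosolic enzymes between -0.04 and 0.08.

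None of the 18 cytosolic enzyme genes was called in slt2 cells by limma, and none had an unadjusted p under 0.05, where 12.1% of all genes had one with a higher and 4.57% with a lower signal. The largest 95% interval bound among them was 0.21, for the glutamine enzyme GLN4 (effect 0.08). Separated groups were seen for 2 of the 18. SES1, the serine enzyme, read 13.45, 13.45 and 13.43 with arsenate, against 13.50, 13.47 and 13.48 untreated. Its arsenate arrays lay just below the untreated ones, by 0.04 on average (adjusted p 0.708), where 7.27% of all genes had non-overlapping groups in that direction. The aspartate enzyme gene DPS1 read 13.35, 13.41 and 13.35 with arsenate, against 13.30, 13.30 and 13.29 untreated, all above, with an effect of 0.07 (adjusted p 0.494). Most cytosolic genes repeated within a few hundredths of a log2 unit: the median SD of the 18 was 0.03 in slt2 arsenate and 0.02 in slt2 untreated, against 0.05 and 0.12 for the 13 mitochondrial genes. The direction of the 18 depended on scaling, with 2 of 18 above 0 (median -0.03) when arrays were centred and 6 of 18 under quantile normalisation. The 4 genes that encode both forms, ALA1, GRS1, HTS1 and VAS1, had effects of -0.04 to 0.01, within the range of the other cytosolic genes. The 127 cytosolic ribosomal protein genes had a median effect of -0.02, with 36 above 0.

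In wild-type cells the 2 compartments lay on opposite sides of 0 after arsenate. All 18 cytosolic enzyme genes had effects below 0, with a median of -0.67 and a range of -1.27 to -0.01. All 13 mitochondrial genes had effects above 0, with a median of 0.50 and a range of 0.17 to 0.95. No gene of the 32 was called by limma (smallest adjusted p 0.299), where 0.0184% of all genes were called, and 7 had an unadjusted p under 0.05, where 9.3% of all genes had one with a higher and 3.47% with a lower signal. Those 7 were VAS1, the valine enzyme, with a negative effect, and MSD1, MSE1, MST1, MSW1, DIA4 and SLM5 with positive effects. Over all genes the median effect was 0.06, and 55.2% were above 0 and 44.8% below.

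The size of the effects followed 2 arrays. The median deviation of the cytosolic enzymes was -1.77, -0.36 and -0.03 on wild-type arsenate arrays 1, 2 and 3, against -0.01, -0.15 and -0.01 on the untreated arrays. For the mitochondrial enzymes it was 1.04, 0.38 and 0.09 with arsenate, against 0.09, 0.00 and -0.03 untreated. Arsenate array 1 was thus the extreme for both compartments, array 2 lay between, and array 3 was close to the untreated arrays. The general stress list ran in the same order on these arsenate arrays, at 4.08, 2.36 and 0.13.

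**Figure D3:**
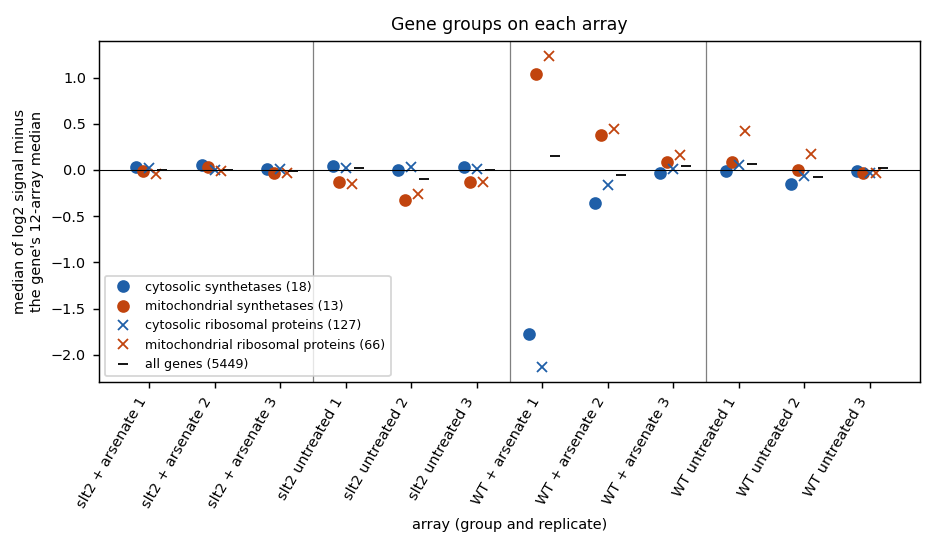
Median of log2 signal minus the gene's 12-array median, for 18 cytosolic and 13 mitochondrial synthetase genes (circles), 127 cytosolic and 66 mitochondrial ribosomal protein genes (crosses) and all 5449 genes (dashes), on each of the 12 arrays. Wild-type arsenate 1 shows the widest split, with -1.77 for cytosolic and 1.04 for mitochondrial synthetases.

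KRS1, the cytosolic lysine enzyme, had the lowest effect. It read 10.15, 12.90 and 13.56 on the wild-type arsenate arrays, against 13.51, 13.35 and 13.56 on the untreated arrays. The first 2 arsenate arrays were below every untreated array, and the third equalled the highest of them. The effect was -1.27 (SE 0.67, 95% interval -2.76 to 0.22).

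WRS1, the tryptophan enzyme, read 9.54, 11.62 and 12.34 with arsenate, against 12.51, 12.21 and 12.40 untreated. MES1, the methionine enzyme, read 9.82, 11.98 and 12.67 with arsenate, against 12.78, 12.44 and 12.77 untreated. Both had 2 arsenate arrays below the untreated range and the third inside it, with effects of -1.21 and -1.17. At the other end, DPS1 (effect -0.01) and the glutamate enzyme GUS1 (effect -0.10) varied little, and DPS1 read 13.17, 12.92 and 13.25 with arsenate, against 13.04, 13.12 and 13.23 untreated. DPS1 was also the only cytosolic gene of the 18 whose lowest arsenate value was not on array 1. Only for DED81, the asparagine enzyme, did all 3 arsenate arrays (11.14, 13.22 and 13.45) lie below all untreated arrays (13.49, 13.47 and 13.50), where 2.92% of all genes did so.

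DIA4, the mitochondrial serine enzyme, had the highest effect. It read 10.29, 9.27 and 8.97 on the wild-type arsenate arrays, against 8.68, 8.56 and 8.43 on the untreated arrays. All 3 arsenate arrays were above all untreated ones. The effect was 0.95 (SE 0.28, 95% interval 0.32 to 1.58), or 1.93-fold, with a limma adjusted p of 0.299.

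MSF1, the mitochondrial phenylalanine enzyme, read 10.84, 9.20 and 8.91 with arsenate, against 8.83, 8.78 and 8.67 untreated, without overlap, and its effect was 0.89. MSD1, the mitochondrial aspartate enzyme, read 10.56, 9.58 and 9.23 with arsenate, against 9.06, 9.06 and 9.14 untreated, again without overlap, and its effect was 0.71. In all, 6 of the 13 mitochondrial genes had non-overlapping groups with arsenate higher (MSD1, MSE1, MSF1, MST1, NAM2 and DIA4), where 5.65% of all genes did. MST1, called in slt2 cells, read 10.20, 9.77 and 9.49, against 9.46, 9.25 and 9.27, an effect of 0.50. The lysine enzyme MSK1 had the lowest effect of the 13, at 0.17, and its groups overlapped (9.88, 9.95 and 9.52 with arsenate, against 9.42, 9.87 and 9.56 untreated).

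Without the 3 arrays that stood apart, only arsenate array 3 was left to set against untreated arrays 1 and 3, and its spread was assumed to be that of the other groups. The median effect was then -0.02 for the cytosolic enzymes, with 13 of 18 below 0, and 0.07 for the mitochondrial enzymes, with 10 of 13 above 0. None was called, and 1 had an unadjusted p under 0.05: DIA4, at 0.41 (adjusted p 0.658). Among the genes named above, the effects were then 0.02 for KRS1, -0.12 for WRS1, -0.10 for MES1, -0.04 for DED81, 0.12 for DPS1 and 0.01 for GUS1. For the mitochondrial genes they were 0.16 for MSF1, 0.13 for MSD1, 0.12 for MST1 and 0.03 for MSK1. When arsenate array 3 was left out instead, 20 of the 32 were called by limma, 10 lower and 10 higher, among 1608 genes in all (14.6% of all genes lower and 14.9% higher). The lower ones were CDC60, GLN4, HTS1, ILS1, KRS1, MES1, SES1, TYS1, VAS1 and WRS1. The higher ones were DIA4, GRS2, ISM1, MSD1, MSE1, MSF1, MSM1, MST1, MSW1 and SLM5. The 611 other genes in the signal range of the cytosolic enzymes had a median effect of -0.25, and the 1159 in the range of the mitochondrial enzymes 0.15, in the fit with all arrays. These were 0.00 and -0.01 without the 3 arrays.

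**Figure D4:**
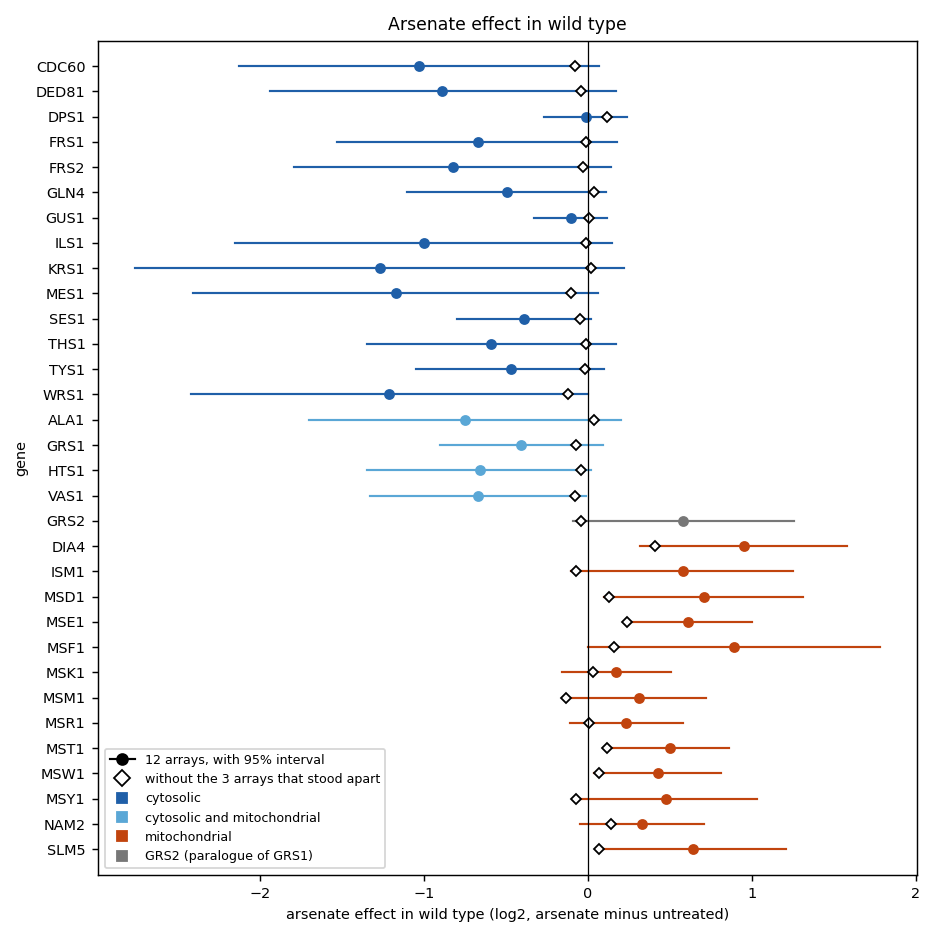
Arsenate effect in wild type for each synthetase gene (log2, arsenate minus untreated) from the 12-array model, with its 95% interval, and the effect without the 3 arrays that stood apart (diamonds). The 12-array effects reach from -1.27 (KRS1) to 0.95 (DIA4), and most diamonds lie near 0.

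Set against untreated wild-type cells, untreated slt2 cells had slightly higher cytosolic and lower mitochondrial enzyme signals. The cytosolic genes had a median difference of 0.08, with 16 of 18 above 0, and the mitochondrial genes -0.16, with 12 of 13 below 0, where 44.8% of all genes were above 0 and 55.2% below. When 1 array was left out, the mitochondrial median lay between -0.21 and -0.08, and -0.08 came without slt2 untreated array 2. The cytosolic median lay between 0.03 and 0.12. With all arrays no gene of the 32 was called and none had an unadjusted p under 0.05 (limma). This model shares 1 spread over all 12 arrays, the wild-type arsenate arrays included. For KRS1 the SE was thus 0.67, where the SDs of the compared groups were 0.02 in slt2 and 0.11 in wild type. The lack of small p-values therefore does not measure the scatter of the untreated groups alone. Of all genes 0.0184% were called, SLT2 alone, and unadjusted p-values under 0.05 were found for 1.03% with a higher and 2.73% with a lower signal. KRS1 read 13.69, 13.64 and 13.65 in slt2 untreated, against 13.51, 13.35 and 13.56 in wild-type untreated, a difference of 0.18. DPS1 read 13.30, 13.30 and 13.29 in slt2, against 13.04, 13.12 and 13.23 in wild type, a difference of 0.17. For both, all slt2 arrays were above all wild-type arrays. WRS1, at 12.59, 12.50 and 12.54 in slt2, overlapped its wild-type values (12.51, 12.21 and 12.40).

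At the low end stood SLM5, the mitochondrial asparagine enzyme, with 8.15, 7.98 and 8.24 in slt2 untreated, against 8.63, 8.58 and 8.42 in wild-type untreated, a difference of -0.42. MSF1 read 8.53, 8.24 and 8.35 in slt2, against 8.83, 8.78 and 8.67 in wild type. MSM1, the mitochondrial methionine enzyme, read 9.08, 8.89 and 9.11 in slt2, against 9.50, 9.36 and 9.34 in wild type. The groups of these 3 genes did not overlap, and MSF1 and MSM1 both differed by -0.38.

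Of the 13 mitochondrial genes, 6 had slt2 arrays all below the wild-type arrays (MSF1, MSM1, MSR1, MST1, DIA4 and SLM5), as had GRS2, where 17.9% of all genes did. Of the 18 cytosolic genes, 6 had them all above (ALA1, VAS1, KRS1, DED81, DPS1 and FRS1), where 8.94% did. MSK1 was the exception among the 13, at 0.11. The medians were 0.03 and -0.19 without the 3 arrays that stood apart. The smallest adjusted p among the 32 was then 0.103 (limma), and 9 of the 32 had an unadjusted p under 0.05. Of these, 6 mitochondrial genes and GRS2 were lower in slt2 cells, where 22.4% of all genes had such a p, and MSK1 (0.24) and DPS1 (0.17) were higher, where 5.34% had one. Among the other genes named, the differences were then 0.12 for KRS1, 0.08 for WRS1, -0.40 for SLM5, -0.37 for MSF1 and -0.40 for MSM1. Genes in the mitochondrial signal range had a median of -0.08 with all arrays and -0.15 without the 3. The mitochondrial ribosomal protein genes had a median of -0.36, with 65 of 66 below 0, and -0.39 without the 3 arrays. Their median deviation was 0.42, 0.17 and -0.03 on wild-type untreated arrays 1, 2 and 3. On the slt2 untreated arrays it was -0.15, -0.26 and -0.13. The slt2 untreated arrays enter this comparison and the arsenate comparison in slt2 cells, so the 2 sets of values are not independent.

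After arsenate, slt2 cells had higher cytosolic and lower mitochondrial enzyme signals than wild-type cells. The cytosolic genes had a median difference of 0.79 (0.11 for GUS1 to 1.46 for KRS1), all 18 above 0. The mitochondrial genes had a median of -0.52 (-1.13 for DIA4 to 0.07 for MSK1), with 12 of 13 below 0. Of all genes, 46.1% were above 0 and 53.9% below. None of the 32 was called by limma (smallest adjusted p 0.142), where 0.0367% of all genes were. Unadjusted p-values under 0.05 were found for 7 of the 18 cytosolic genes, with slt2 higher (13.4% of all genes), and for 7 of the 13 mitochondrial genes and GRS2, with slt2 lower (19.6% of all genes). KRS1 read 13.67, 13.64 and 13.68 in slt2 arsenate, against 10.15, 12.90 and 13.56 in wild-type arsenate. WRS1 read 12.51, 12.63 and 12.48, against 9.54, 11.62 and 12.34 in wild type. MES1 read 12.77, 12.79 and 12.74, against 9.82, 11.98 and 12.67 in wild type. In each of these 3 genes the slt2 arrays were tightly grouped above all wild-type arrays, and wild-type array 1 was far lowest. The differences were 1.46, 1.37 and 1.28.

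DIA4 read 8.24, 8.53 and 8.38 in slt2 arsenate, against 10.29, 9.27 and 8.97 in wild-type arsenate. MSF1 read 8.62, 8.74 and 8.40 in slt2, against 10.84, 9.20 and 8.91 in wild type, a difference of -1.06. SLM5 read 8.25, 8.38 and 8.28 in slt2, against 9.84, 9.12 and 8.60 in wild type, a difference of -0.88. For these 3 mitochondrial genes every slt2 array was below every wild-type array, array 3 included.

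Non-overlapping groups were found for 11 of the 18 cytosolic genes, with slt2 higher, where 16.5% of all genes had them, and for 8 of the 13 mitochondrial genes, with slt2 lower, where 23.6% had them. Without the 3 arrays, the medians were 0.07 and -0.07, and DIA4 was at -0.58 (adjusted p 0.227). KRS1, WRS1 and MES1 then differed by 0.11, 0.20 and 0.10, GUS1 by 0.00, MSF1 and SLM5 by -0.32 and -0.30, and MSK1 by 0.34. Without wild-type arsenate array 3, 26 of the 32 were called, 16 higher and 10 lower, among 2324 genes in all (20.6% of all genes higher and 22.0% lower). The wild-type arsenate group was then made up only of arrays that stood apart.

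The test of whether the arsenate effect differed by genotype called none of the 32 genes and no gene at all, or 0.0% (limma, smallest adjusted p among the 32 0.711), and none of the 32 had an unadjusted p under 0.05, where 0.257% of all genes had one in each direction. The difference, slt2 effect minus wild-type effect, was above 0 for all 18 cytosolic genes (median 0.69) and below 0 for all 13 mitochondrial genes (median -0.34), where 47.6% of all genes were above 0 and 52.4% below. The largest were 1.27 for KRS1 (95% interval -0.83 to 3.38) and -0.79 for DIA4 (95% interval -1.68 to 0.10). With the 3 arrays left out the medians were 0.03 and 0.11, and 11 of the 13 mitochondrial genes then lay above 0. KRS1 was then at -0.02 and DIA4 at -0.25.

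For 12 amino acids the 32 genes held both a cytosolic and a mitochondrial enzyme with a gene of its own, and these were set side by side as 13 pairs, since the 2 subunits of the cytosolic phenylalanine enzyme, FRS1 and FRS2, share the partner MSF1. In slt2 cells the arsenate effect of the mitochondrial gene exceeded that of its cytosolic counterpart in 13 of 13 pairs, by 0.02 to 0.30 with a median of 0.18. The signal of the mitochondrial gene minus that of its counterpart had non-overlapping groups, arsenate higher, in 4 of the 13. No background share was computed for that count. Every pair also sets a probe set with a mean of 8.54 to 9.75 against one of 12.16 to 13.81, and the part of signal range was not tested. The widest gap was for threonine, 0.32 for MST1 and 0.03 for THS1. Isoleucine (0.24 for ISM1 and -0.04 for ILS1) and tryptophan (0.27 for MSW1 and 0.00 for WRS1) followed, with gaps of 0.28. The narrowest was for tyrosine, 0.05 for MSY1 and 0.02 for TYS1. Pairs share their arrays and are not independent, so the count carries no test.

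In wild-type cells the gap was 0.71 (glutamate, MSE1 over GUS1) to 1.71 (phenylalanine, MSF1 over FRS2), with a median of 1.44, and it had the same sign in 13 of 13 pairs. On the arrays, the signal difference within a pair had non-overlapping groups, arsenate higher, in 7 of the 13, again without a background share. The gap itself depended on the arrays that stood apart. Without the 3 arrays it was above 0 in 10 of 13, with a median of 0.13, and serine (DIA4 over SES1) was highest at 0.46. For lysine the wild-type gap of 1.44 lay almost wholly on the cytosolic side (0.17 for MSK1 and -1.27 for KRS1), and for aspartate, with a gap of 0.72, on the mitochondrial side (0.71 for MSD1 and -0.01 for DPS1). Without the 3 arrays the gap was 0.01 for lysine and 0.02 for aspartate. Between slt2 and wild type the mitochondrial gene's difference lay below that of its counterpart in 13 of 13 pairs, by -0.55 to -0.07 untreated (median -0.24) and by -1.90 to -0.69 after arsenate (median -1.51). When the 3 arrays were omitted, it lay below in 12 of 13 pairs untreated (-0.53 to 0.11, median -0.25) and in 11 of 13 after arsenate (-0.58 to 0.23, median -0.20).

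**Figure D5:**
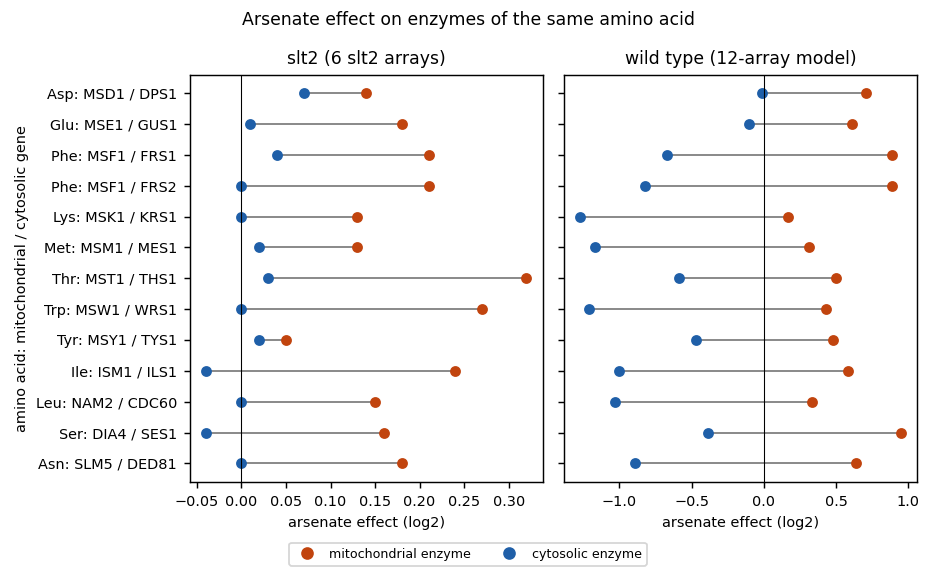
Arsenate effect (log2) of the mitochondrial and the cytosolic enzyme gene of the same amino acid, joined by a line, in slt2 cells (left, fit to 6 arrays) and wild-type cells (right, 12-array model). The mitochondrial point is to the right in all 13 pairs of both panels, by 0.02 to 0.30 on the left and 0.71 to 1.71 on the right, where the axis is wider.

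The 2 glycine enzyme genes lay on different sides of 0 in wild-type cells after arsenate. GRS1, the main gene, read 13.40, 13.41 and 13.44 in slt2 arsenate, against 13.43, 13.37 and 13.41 in slt2 untreated, and 12.37, 13.23 and 13.38 in wild-type arsenate, against 13.48, 13.30 and 13.43 in wild-type untreated. It was low only on wild-type arsenate array 1 and otherwise stayed between 13.23 and 13.48. GRS2 read 9.14, 9.14 and 9.06 in slt2 arsenate, against 9.04, 8.93 and 9.07 in slt2 untreated, and 10.65, 9.88 and 9.13 in wild-type arsenate, against 9.12, 9.55 and 9.23 in wild-type untreated. The 3 arrays that stood apart held its 3 highest values. The wild-type arsenate effect was 0.58 for GRS2 (SE 0.30) and -0.41 for GRS1 (SE 0.22), neither called, and without the 3 arrays it was -0.04 for GRS2 and -0.07 for GRS1.

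The 2 structural classes were also read side by side within each compartment. In slt2 cells the median arsenate effect was 0.01 for the 8 cytosolic class I genes and 0.00 for the 10 of class II, and 0.16 and 0.17 for the 7 mitochondrial genes of class I and the 6 of class II. In wild-type cells the medians were -0.83 and -0.67 in the cytosol and 0.43 and 0.67 in the mitochondrion, and without the 3 arrays they were -0.05 and -0.02, and 0.01 and 0.13. These medians have no test.

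Synthetases annotated outside the 32 and the enzymes around them were read as lists, with no test of a list. Among 3 further synthetases, the cytosolic arginine enzyme YDR341C (-0.64) and the cytosolic proline enzyme YHR020W (-1.28) were negative in wild-type arsenate, and AIM10, the mitochondrial proline enzyme, was positive (0.72). None of the 3 was called in wild-type cells (each adjusted p 0.299) or in slt2 cells, where the effects were 0.05, -0.03 and 0.17. Their wild-type effects without the 3 arrays were -0.03, -0.05 and 0.05. ARC1, which holds the methionine and glutamate enzymes in a complex, had an effect of 0.03 in slt2 cells and -0.27 in wild-type cells. HER2, PET112 and GTF1 form the amidotransferase that makes glutaminyl-tRNA in mitochondria, and had effects of 0.09, 0.10 and 0.01 in slt2 cells and 0.48, 0.67 and 0.46 in wild-type cells, none called. The wild-type effects of ARC1, HER2, PET112 and GTF1 were 0.04, 0.14, -0.06 and 0.17 without the 3 arrays.

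Genes for tRNA maturation (21), tRNA modification (39) and RNA polymerase III transcription (19) had median effects of 0.00, 0.01 and 0.00 in slt2 cells, and -0.40, -0.73 and -0.61 in wild-type cells. None of their members was called in either genotype (limma). Unadjusted p-values under 0.05 numbered 1, 2 and 0 in slt2 cells and 2, 2 and 1 in wild-type cells. Of all genes, 12.1% had one with a higher and 4.57% with a lower signal in slt2 cells. In wild-type cells these shares were 9.3% and 3.47%. The largest effects in slt2 cells were 0.27 for MOD5, a tRNA isopentenyltransferase (adjusted p 0.148), and 0.23 for MSS1, a modification enzyme of mitochondrial tRNAs (adjusted p 0.372). SEN34, a subunit of the tRNA splicing endonuclease, was at -0.17, and TRZ1, the tRNA 3' endonuclease, at 0.10. In the transcription list TFC3, a subunit of TFIIIC, was at 0.12, and RPC53, a subunit of the polymerase, at -0.11. The wild-type medians of these lists were -0.06, -0.09 and -0.09 when the 3 arrays were left out.

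Uncharged tRNA activates the kinase Gcn2, which raises translation of the transcription factor Gcn4, a regulator of amino acid synthesis. GCN4 mRNA, which does not report that translational step, differed by 0.05 in slt2 cells and 0.06 in wild-type cells, and GCN2 by -0.06 and 0.14. In wild-type cells without the 3 arrays these were -0.07 for GCN4 and -0.12 for GCN2. Of 33 genes of this pathway, none was called by limma, and 6 had an unadjusted p under 0.05 in each genotype. Of all genes, 12.1% had such a p with a higher and 4.57% with a lower signal in slt2 cells. In wild-type cells these shares were 9.3% and 3.47%. The median effect of the 33 genes was 0.06 in slt2 cells (24 above 0) and -0.51 in wild-type cells (26 below 0). ARG3 (0.53, SE 0.29) and HIS4 (0.37, SE 0.13), enzymes of arginine and histidine synthesis, had the largest effects in slt2 cells. The wild-type median was 0.01 without the 3 arrays.

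The ribosomal protein genes showed both compartments on the same arrays. On wild-type arsenate array 1 the cytosolic ribosomal protein median was -2.13 and the mitochondrial one 1.23, and on array 3 they were 0.01 and 0.16. Their wild-type arsenate medians were -0.75 and 0.44, and 0.00 and -0.03 without the 3 arrays. Ribosome biogenesis genes (53) had an slt2 median of 0.00 and a wild-type median of -1.11, or -0.14 without the 3 arrays.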

How the data were processed

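The deposited values are log2 signals per probe set, for which the submitters' processing notes name RMA and Affymetrix Expression Console. RMA subtracts background, normalises and combines the probes of a set. No version is given in the sources used here, and whether the 12 arrays were processed in 1 run is not stated. Of 5814 probe sets, 316 had no symbol in the platform annotation. The 98 control probe sets are counted within the 5814 and are not a further category. The 5498 probe sets with 1 symbol gave 5449 genes, and the probe set with the highest mean was used for the 47 genes with several. All 32 synthetase genes had 1 probe set. Members and gene lists were chosen with earlier results of these data known. Group means were compared with limma 3.58.1 (R 4.3.3, lmFit and eBayes), in 1 model of the 12 arrays and, for arsenate in slt2 cells, also on the 6 slt2 arrays. P-values were adjusted over all genes. The code was tested on simulated data in which each gene kept its own spread in each group. Of the genes called there, 67.8% were false for arsenate in wild type and 57.8% between genotypes after arsenate. The false share was 33.1% for the difference of effects and 7.53% between untreated genotypes. For arsenate in slt2 cells it was 6.73% on the slt2 arrays and 0.699% in the 12-array model. Genes named with values on every array were those called, the largest non-overlapping effects in slt2 cells, the 3 highest and lowest effects elsewhere, and GRS1 and GRS2; values of other genes were added after seeing them. Some listed genes, CRS1 and ARG5,6 among them, are not analysed here. The number of arrays limits the precision. No synthetase sequence was used here. Tables and figures were made with Python 3.11.15, pandas 2.3.3, numpy 2.4.6 and matplotlib 3.10.9.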

Additional observations from a re-analysis of the deposited data

How the results depend on the processing

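Alternatives were other scalings, probe set rules, a filter on dim genes, other variance models, a replicate block and leaving out arrays. In slt2 cells the count of called synthetase genes was 2 with centred arrays (2.9% of all genes called higher), 0 with the replicate block (MST1 0.32, adjusted p 0.110, limma) and 2 in the 12-array model with 1 weight per group (3.1% called higher), and it was 0 to 1 when 1 array was left out. Same-numbered deviations correlated at -0.17 to 0.47, above 0 in 15 of 18, and in none of the 4 pairs of groups compared were all 3 over 0.1, so the numbers were not taken as pairing. That rule cannot exclude pairing. Between arsenate and untreated arrays all 3 were above 0 in slt2 cells (0.05 to 0.39) and in wild type (0.04 to 0.47). Centring gave cytosolic medians of -0.03 in slt2 cells, in both fits, and 0.14 for slt2 against wild type untreated. Leaving out the 3 divergent wild-type arrays, the mitochondrial median of the wild-type arsenate effect was 0.07, the medians between genotypes after arsenate were 0.07 (cytosolic) and -0.07, and those of the difference of effects were 0.03 and 0.11. Leaving out 1 array gave 0 to 20 called genes for wild-type arsenate and 0 to 26 between genotypes after arsenate. The highest counts both came without wild-type arsenate array 3. Medians of the difference were then 0.16 to 1.02 (cytosolic) and -0.60 to 0.01 (mitochondrial). The extremes of these medians came without wild-type arsenate array 3 or 1. The cause was not tested. With 3 arrays a group, small effects in wild type cannot be resolved.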
